A study of Rattus norvegicus with 32 samples.

Results

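The EGF family of growth factors and their receptors was followed in the mammary gland of virgin rats through the 4-day estrous cycle. The genes were chosen with earlier results of these data known, and their probe sets were taken by gene symbol alone. Every probe set whose platform annotation names Areg, Ereg, Btc, Hbegf, Nrg1, Nrg4, Egfr, Erbb2, Erbb3 or Erbb4 was taken. This gave 10 of the 14217 genes and 19 of the 31099 probe sets on the array, 13 for the 6 ligands and 6 for the 4 receptors. A probe set is a group of short oligonucleotides that reads 1 or more transcripts, and its value is a linear intensity with background removed. The animals were untreated adult female Sprague Dawley rats, not genetically modified, and each of 32 rats, with 1 array, was killed at an hour of its own, so that time points were not replicated. The study discarded the rat of 40 h, which left 31 rats: 8 on day 1 (7.0 to 17.6 h), 8 on day 2 (31.6 to 43.0 h), 8 on day 3 (57.0 to 67.1 h) and 7 on day 4 (79.3 to 88.1 h). The samples were taken between the clock hours of 7.0 and 19.1, so the night was not seen. The labels call the samples by hour of the cycle and not by stage, and the days are therefore named by number.

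EGF family ligands are made as membrane-anchored precursors and are released by proteases on the cell surface, among them Adam17, which does not serve all ligands alike. They bind EGFR, ERBB3 or ERBB4, which pair with one another or with ERBB2, a receptor with no known ligand of its own, and the paired receptors signal through the Ras, MAP kinase and PI3 kinase routes. In the mammary gland amphiregulin is the ligand known to carry the estrogen signal from receptor-positive luminal cells to the stroma, where EGFR is needed for the ducts to grow. The neuregulins bind ERBB4, and some of them also bind ERBB3. Neuregulin 4 binds ERBB4 and is also known as a factor secreted by fat tissue.

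Upstream sequences of 300 bases, from 250 before to 50 after the annotated start, were found in RefSeq (build GRCr8) for 7 of the 10 genes, Areg, Btc, Hbegf, Nrg4, Egfr, Erbb2 and Erbb4. Ereg, Nrg1 and Erbb3 had no entry. Those of Nrg4, Areg and Btc are shown because the values of these ligands are the ones described at most length below. They lie at chr8:64555124-64555423 (minus strand) for Nrg4, chr14:17265592-17265891 (minus strand) for Areg and chr14:16992418-16992717 (plus strand) for Btc, each is written 5′ to 3′ along its gene, and capitals mark motif matches.
Nrg4: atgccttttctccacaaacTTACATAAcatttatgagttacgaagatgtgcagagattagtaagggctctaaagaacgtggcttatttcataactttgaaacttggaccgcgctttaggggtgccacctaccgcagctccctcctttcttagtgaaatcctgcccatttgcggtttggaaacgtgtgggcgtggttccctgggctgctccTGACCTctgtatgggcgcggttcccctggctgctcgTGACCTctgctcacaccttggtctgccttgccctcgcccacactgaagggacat
Areg: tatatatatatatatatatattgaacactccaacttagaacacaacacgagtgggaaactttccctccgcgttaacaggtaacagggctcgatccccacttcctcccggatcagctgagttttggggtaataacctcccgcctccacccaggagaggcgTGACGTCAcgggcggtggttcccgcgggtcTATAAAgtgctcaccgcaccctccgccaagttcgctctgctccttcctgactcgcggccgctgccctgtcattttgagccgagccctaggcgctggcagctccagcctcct
Btc: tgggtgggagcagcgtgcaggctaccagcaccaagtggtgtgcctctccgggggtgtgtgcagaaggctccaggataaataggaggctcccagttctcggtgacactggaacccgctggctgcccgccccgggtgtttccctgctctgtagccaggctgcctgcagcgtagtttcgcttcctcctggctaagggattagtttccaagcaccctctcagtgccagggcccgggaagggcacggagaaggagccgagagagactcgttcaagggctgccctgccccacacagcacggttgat

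The motifs searched, on both strands, were the E-box CACGTG, which the clock factors bind, the D-box TTANGTAA of the clock-controlled PAR bZIP factors, the nuclear receptor motif AGGTCA, the cAMP response element TGACGTCA, the TATA box TATAAA and the palindromic estrogen response element. The Nrg4 window held 1 D-box, which begins 231 bases before the start, and 2 nuclear receptor motifs, 40 and 4 bases before it. A D-box was present in 2.24% and a nuclear receptor motif in 16.2% of the 33469 promoter windows of that table. The Areg window held a cAMP response element 91 bases and a TATA box 61 bases before the start, found in 1.83% and 14.2% of all windows. No match to these letters was seen in the windows of Btc, Hbegf, Egfr, Erbb2 or Erbb4. In GRCr8 the protein-coding genes Btc, Areg, Ereg and Epgn follow one another on the same chromosome with no other protein-coding gene between them.

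Of the 19 probe sets, 8 had a median intensity under 10 over the 31 rats and are reported as near background. They are the only probe sets of Ereg (median 5.08, range 3.85 to 8.90) and Erbb4 (7.99, range 7.18 to 10.2) and 6 of the 8 of Nrg1, whose medians ran from 4.69 to 9.97. The nearest to the limit was the Nrg1 probe set 1371211_a_at with a median of 9.97. Just above it lay Hbegf (1368983_at) at 13.5, Egfr (1385413_at) at 14.7 and Nrg1 (1370607_a_at) at 17.8. The tests used the 21068 probe sets that reached 10 on every one of the 31 arrays. Of the members, 9 probe sets of 8 genes were among them. Those left out with a median of 10 or more were Egfr 1385413_at, which fell to 8.59 in 1 rat, and Nrg1 1370607_a_at, which ran from 6.44 to 43.7. At 40 h this Nrg1 probe set read 61.9, above all 31 rats used. With no filter, none of the 10 probe sets left out was called in any comparison.

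Change was tested with limma on log2 intensity, with cycle day and clock hour in 1 model, and p-values were adjusted by Benjamini-Hochberg over all 21068 probe sets, with a threshold of 0.05. The study's own spline test, here Method 1, was rerun with its false discovery rate of 0.25. It gives each probe set a rho, the share of its variance that a spline over the whole cycle follows. Because time points were not replicated, the error of every estimate is the spread of rats around the fitted day and hour, in which biological and technical parts cannot be told apart. The array medians ran from 49.9 to 54.7, and the correlation between any pair of arrays from 0.956 to 0.991. No array stood far from the rest by these measures, which do not show tissue content. The mean log2 level of the skeletal muscle markers, centred on all rats, ran from -4.38 at 10.0 h to 2.80 at 13.2 h. That of the lymphocyte markers ran from -0.93 at 43.0 h to 3.26 at 80.9 h. All 14 luminal epithelial and all 10 adipocyte markers passed the filter, as did 10 of 10 basal and 7 of 7 fibroblast markers. Of the skeletal muscle markers 5 of 10 passed, and of the lymphocyte markers 4 of 9. The intensities are of whole gland, where fewer cells of a type and less RNA per cell cannot be told apart.

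Over the whole family, clock hour moved 2 of the 9 tested probe sets (Nrg4 higher and Egfr 1381145_at lower later in the day), and cycle day moved none. The background share called by clock hour was 1.96% of all probe sets (412). By the test of any difference among the days it was 0.574%, with 0 of 9 members called and 1 at an unadjusted p below 0.05. For single pairs of days the share called was 0.00475% for day 2 against day 1, 1.12% for day 3 against day 1, 0.0237% for day 4 against day 1, 0.271% for day 3 against day 2, 0.0427% for day 4 against day 2 and 0% for day 4 against day 3, where 1220 probe sets had an unadjusted p below 0.05. No member was called in any of these 6 pairs. The members with an unadjusted p below 0.05 numbered 1 for days 3 and 1, 1 for days 4 and 1, 1 for days 3 and 2, 2 for days 4 and 2, and 0 for the other pairs. The test of whether the clock hour slope differed between days called 0.00475% of probe sets and no member, with none at an unadjusted p below 0.05. Method 1 called 9.06% of probe sets and 4 of the 9 members, Nrg4, Egfr 1381145_at, Btc and Hbegf.

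**Figure D1:**
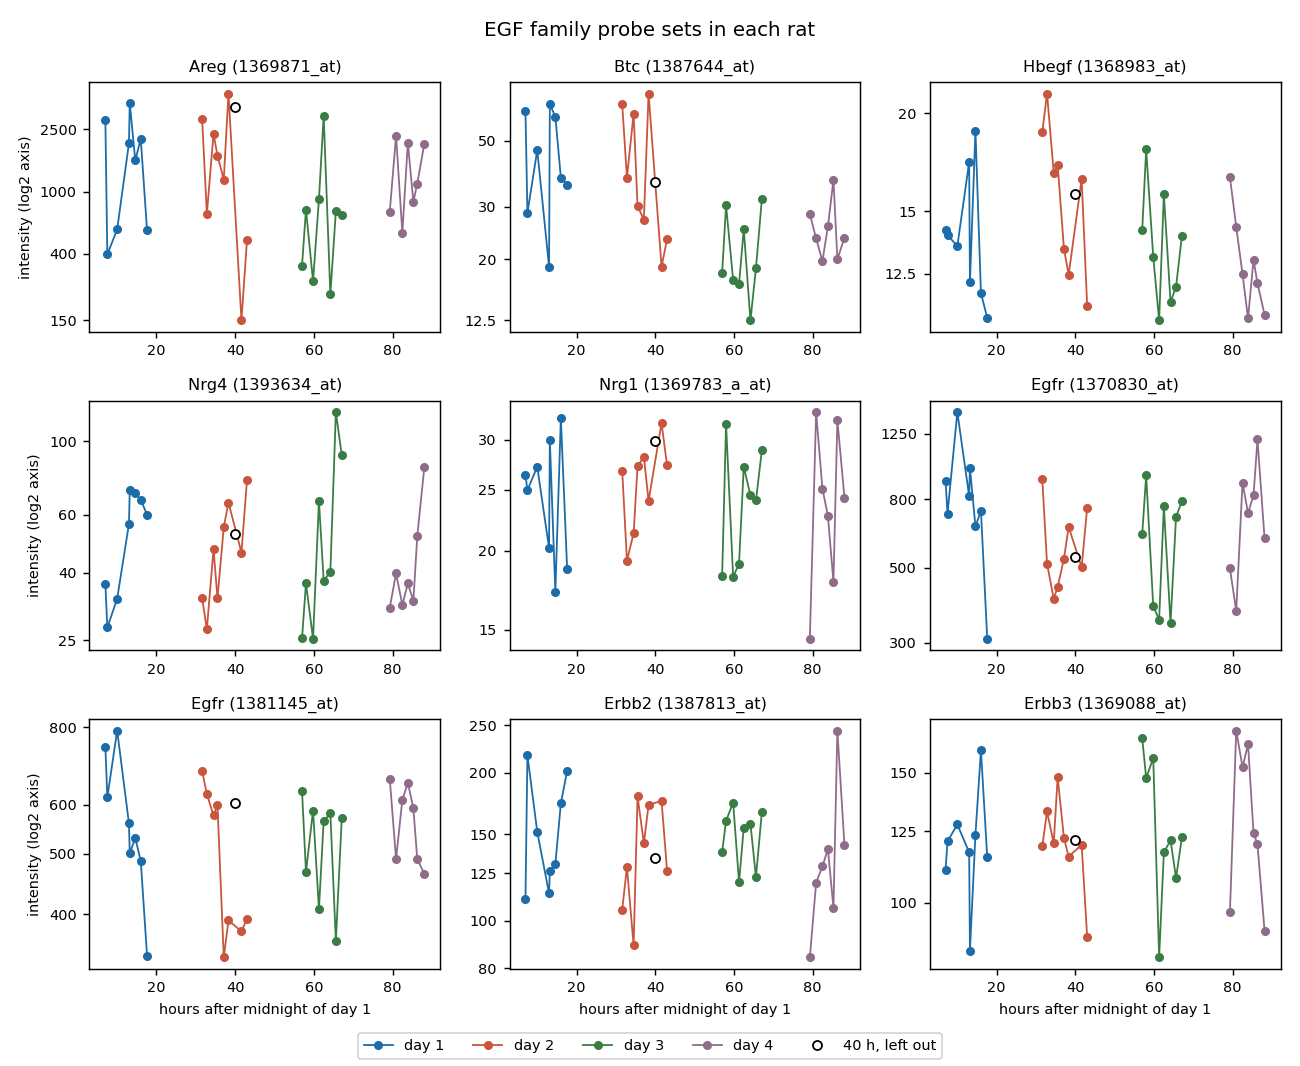
Intensity (log2 axis) of the 9 tested probe sets against hours after midnight of day 1, with 1 point for each rat, colours for the 4 days and an open circle for the 40 h rat, which was left out of the fits. Lines join different rats of the same day. Nrg4 climbs within each day, and Areg scatters between 149 and 4240 with neighbouring rats far apart. Btc lies low from 41.6 h to 67.1 h, and all 7 rats of day 4 also lie below the day 1 median.

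Among the ligands, Nrg4 (1393634_at) showed a steep rise through the day. On day 1 its intensity was 37.1, 27.4 and 33.4 at 7.0, 7.5 and 10.0 h, then 56.2, 71.0, 69.7, 66.5 and 59.9 at 13.0, 13.2, 14.6, 16.0 and 17.6 h. On day 2 it was 33.6, 27, 47.1 and 33.5 from 31.6 to 35.5 h, then 54.9, 65.2, 46.0 and 76.2 from 37.1 to 43.0 h. The first 3 rats of day 1 thus lay below the other five, and on day 2 the sole overlap was the rat of 34.5 h with that of 41.6 h.

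On day 3 Nrg4 read 25.4, 37.2 and 25.3 at 57.0, 58.0 and 59.8 h, then 66.0, 37.9, 40.2, 122 and 90.7 from 61.3 to 67.1 h. On day 4 it read 31.4, 39.8, 32 and 37.1 from 79.3 to 83.9 h, then 32.9, 51.7 and 83.6 from 85.3 to 88.1 h. Every day thus began low and had its highest rat after noon, and on days 3 and 4 some of the afternoon rats were still at the morning level. Divided shortly after noon, the 14 earlier rats ranged from 25.3 to 47.1 (median 33.5) and the 17 later rats from 32.9 to 122 (median 65.2), and 13 of the 17 lay above every earlier rat. The clock hour estimate was +1.29 ± 0.20 (log2 over 10 h, standard error, limma adjusted p = 1.50e-04).

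Within each day the Nrg4 slope pointed the same way, at +1.18 ± 0.30, +0.99 ± 0.33, +1.84 ± 0.58 and +1.24 ± 0.49 for days 1 to 4 (log2 over 10 h, standard error). The days themselves did not separate: the medians were 58.1, 46.6, 39.1 and 37.1 on days 1 to 4, with ranges that overlapped, and the day test gave a limma adjusted p of 0.844. Method 1 called Nrg4 with a rho of 0.634 (adjusted p = 0.0159). The clock hour call was made in all 44 alternative fits, where the estimate ran from +1.12 to +1.43.

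Adipocyte markers moved with Nrg4. Over the 31 rats the Pearson r with the mean log2 level of the 10 markers was 0.68 (permutation p = 3.00e-05) and Spearman's rho 0.70, with an adjusted p of 0.0015 for r over the 100 relations of 10 members with 9 marker lists and Pgr. It was 0.57 without the 2 rats farthest from the median of the list, and 0.63, 0.65, 0.85 and 0.61 within days 1 to 4. Like Nrg4, the list was on average higher later in the day, at -0.11 in the earlier and 0.09 in the later rats. Clock hour was not taken out of these r or of the permutation, so a course over the day that both share is part of them. By clock hour 2 of the 10 markers were called, beside 1.96% of all probe sets. Both were higher, Cidec (+0.74 ± 0.18, limma adjusted p = 0.0191), a lipid droplet protein, and Pparg (+0.92 ± 0.24, limma adjusted p = 0.0400), the master regulator of fat cells. The other markers were not called, and Method 1 called 0 of the 10, beside 9.06% of all probe sets. The list's mean log2 level, centred on all rats, ran from -0.60 to 0.21 in the earlier and from -0.44 to 0.78 in the later rats. With luminal, adipocyte, muscle and lymphocyte lists as covariates the Nrg4 estimate was +1.16 ± 0.09 over 10 h (limma adjusted p = 5.61e-09), and the part of adipocytes in the result was not further tested. The genes whose profile was most like that of Nrg4 over the 31 rats were Ephx1 (r = 0.90), C1h19orf12 (0.89) and Zfp467 (0.88).

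**Figure D2:**
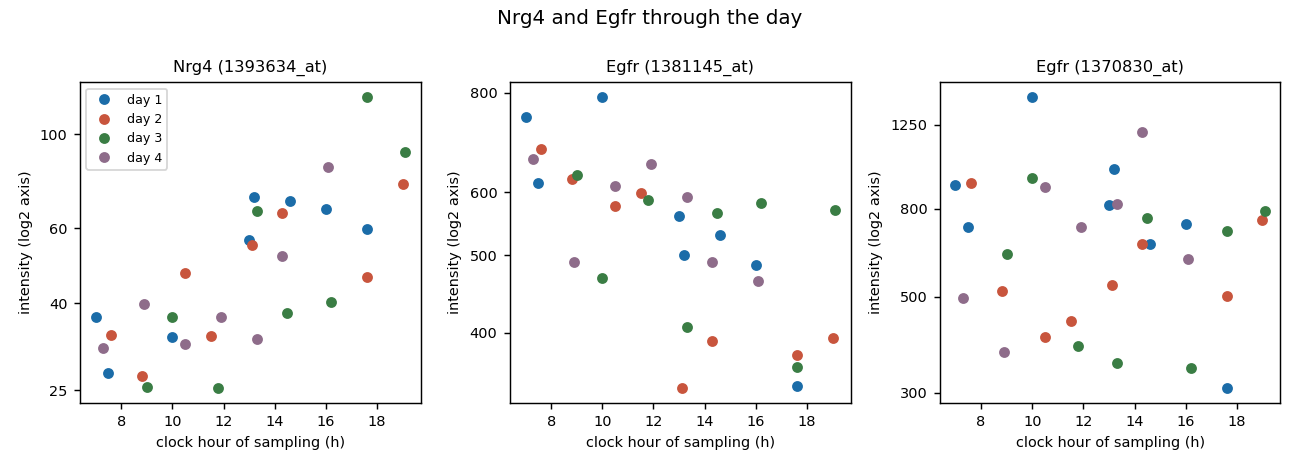
Intensity (log2 axis) against the clock hour of sampling for Nrg4 and for the 2 tested Egfr probe sets, 1 point for each of 31 rats, coloured by day. Nrg4 rises and Egfr 1381145_at falls with the hour, while Egfr 1370830_at shows a wide scatter at every hour.

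Btc, betacellulin, a ligand of both EGFR and ERBB4, was measured by 1387644_at. The day 1 rats read 18.9 to 66.2 (median 42.0) and those of day 2 read 18.9 to 71.8 (median 33.9). The day 3 rats read 12.47 to 31.8 (median 18.3) and those of day 4 read 19.7 to 36.9 (median 23.6). All 8 rats of day 3 lay below the medians of days 1 and 2, and 5 of the 8 lay below every rat of day 1. On day 4 all 7 rats also lay below the median of day 1, and 6 of the 7 below that of day 2. None of the 7 lay below every rat of day 1. The lowest of day 1 was the rat of 13.0 h at 18.9, whereas the rat of 13.2 h, killed within the same hour, was the highest of that day at 66.2.

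The limma difference of day 3 from day 1 was -0.96 ± 0.27 on the log2 scale with an adjusted p of 0.0726, which missed the threshold. That of day 3 from day 2 was -0.84 ± 0.27 (adjusted p = 0.181), and the test over all days gave an adjusted p of 0.131. Between days 4 and 1 the difference ran from -0.91 to -0.65 when each rat was left out. It was called in none of these fits (limma adjusted p from 0.203 to 0.842). The low values began within day 2, since the rats of 41.6 and 43.0 h read 18.9 and 23.3, below the 6 earlier rats of that day (27.2 to 71.8). When the 10 rats of 41.6 to 67.1 h (12.47 to 31.8, median 18.8) were set against the 14 of 7.0 to 38.3 h (18.9 to 71.8, median 42.0), the difference was -1.05 ± 0.22 with a limma adjusted p of 0.00734. This division of the cycle was chosen with earlier results of these data known, so its p is a description and no independent support, and it called 1.94% of all probe sets and 1 of the 9 members. In all, 4 of 41 alternative fits called Btc lower between days 3 and 1. Besides that division they were the fit with array weights (-1.10 ± 0.27, adjusted p = 0.0239) and those without the rat of 13.0 h (-1.12, adjusted p = 0.0206) or of 67.1 h (-1.07, adjusted p = 0.0457), the only 2 of the 31 that leave out 1 rat. Over these 31 the adjusted p reached 0.166. With tissue lists as covariates the difference did not pass either, at -0.89 with 4 lists (adjusted p = 0.0925) and -0.96 with the luminal list alone (adjusted p = 0.0670). Method 1 called Btc with a rho of 0.4998 (adjusted p = 0.135) and did so in 20 of the 31 fits that leave out 1 rat. The call was lost without the rat of 7.0, 16.0, 31.6, 35.5, 43.0, 57.0, 59.8, 64.2, 65.6, 80.9 or 83.9 h.

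Pgr, the progesterone receptor and a gene induced by estrogen, was among the 3 genes most like Btc (r = 0.82), after Smim38 (0.89) and Gas2l3 (0.85). Pgr read 132 to 433 in the day 1 rats, 34.0 to 347 in those of day 2, 46.6 to 69.7 in those of day 3 and 60.2 to 238 in those of day 4, with no overlap between days 1 and 3. Over the 31 rats Spearman's rho of Btc with Pgr was 0.85, and the permutation p of r was 1.00e-05, the smallest that 100000 resamples can give (adjusted p = 0.00100). Since Pgr itself differs between days, the values within days matter: r was 0.95, 0.81, 0.82 and 0.82 on days 1 to 4, and 0.83 without the 2 rats farthest from the median of Pgr. Btc was thus higher in the rats with more Pgr on each day taken alone. Clock hour was not taken out of these r, so a change that both genes share within a day is part of them. The r of Btc with the luminal epithelial list was -0.08 (permutation p = 0.665). The markers of this list did not move alike. Between days 3 and 1, 3 of the 14 were called, beside 1.12% of all probe sets. Krt8 (+0.47) and Krt18 (+0.41) were higher and Prom1 (-0.99) lower on day 3. An r with their mean does not show how Btc relates to single luminal genes, which was not tested.

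Areg (1369871_at), amphiregulin, had a median of 892 and ran from 149 to 4240, a span of 28.4-fold. The lowest, median and highest rats of day 1 read 395, 1813 and 3700, and those of day 2 read 149, 1447 and 4240. For day 3 these values were 219, 725 and 3063, and for day 4 they were 543, 1125 and 2279. The days overlapped widely. After day and clock hour were fitted, the residual standard deviation of Areg was 1.27 on the log2 scale, at the 99.8th percentile of all probe sets tested, whose median was 0.228. Rats sampled close together could also lie far apart, as did those of 7.0 and 7.5 h at 2869 and 395.

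The difference of day 3 from day 1 was -1.04 ± 0.60 (log2, limma adjusted p = 0.453), and the clock hour estimate was -0.35 ± 0.62 over 10 h (limma adjusted p = 0.861). The latter had no settled sign: its slopes within days 1 to 4 were +0.36 ± 1.28, -2.31 ± 1.29, +0.59 ± 1.36 and +0.76 ± 1.14, and it was +0.09 without the rat of 41.6 h and +0.53 without day 2. Under the division at 41.6 h used for Btc, the 14 rats of 7.0 to 38.3 h read 395 to 4240 (median 1872) and the 10 of 41.6 to 67.1 h read 149 to 3063 (median 595). These overlapped, and the difference of -1.62 ± 0.47 missed the threshold (limma adjusted p = 0.0667), with the same limit on how the division was chosen. Areg was correlated with Pgr over the 31 rats (r = 0.63, permutation p = 1.70e-04, adjusted p = 0.00425, Spearman's rho 0.60), with 0.51, 0.77, 0.68 and 0.37 within days 1 to 4 and 0.57 without the 2 rats farthest from the median of Pgr. Clock hour was not taken out of these values either. The r of Areg with Btc, its neighbour on the chromosome, was 0.61, as a description. The genes most like Areg were Cnn3 (r = 0.76), Apoc3 (0.76) and Prag1 (0.75). At 40 h, the rat left out, Areg read 3508 and Btc 36.2, both inside the range of the earlier rats of day 2.

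**Figure D3:**
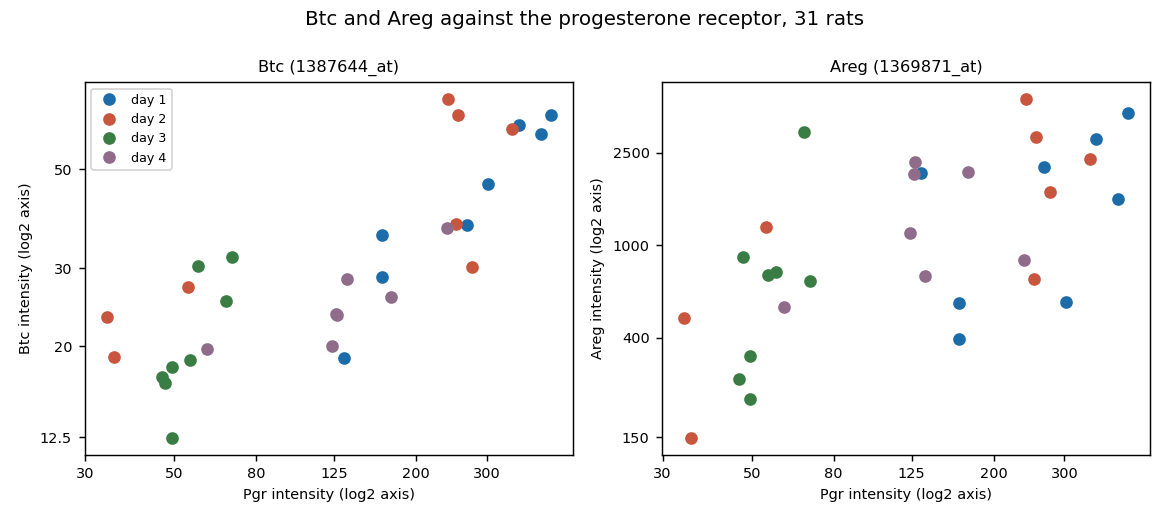
Btc and Areg intensity against Pgr intensity (all log2 axes) in the 31 rats, coloured by day. The day 3 rats lie at the low end of Pgr, between 46.6 and 69.7, and the rise of Btc with Pgr is also seen within each day, with r from 0.81 to 0.95.

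Hbegf (1368983_at), a ligand that also binds heparan sulfate, lay close to the filter, from 10.9 to 21.2. The 14 earlier rats ran from 11 to 21.2 (median 14.3) and the 17 later rats from 10.9 to 19 (median 12.2), with 13 of the 17 below the median of the earlier rats. The clock hour estimate of -0.38 ± 0.12 over 10 h missed the threshold (limma adjusted p = 0.0941), and it passed without the rat of 14.6 h, the highest of the later rats at 19 (-0.42, adjusted p = 0.0303). It did not pass in the other 43 of 44 alternatives, where the adjusted p reached 0.576. Method 1 called Hbegf with a rho of 0.458 (adjusted p = 0.226), a call made in 12 of the 31 fits that leave out 1 rat, where the adjusted p ran from 0.0958 to 0.636. Its most similar genes were Rhoj (r = 0.64), Angpt2 (0.62) and Lnc215 (0.61).

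Nrg1, a ligand of ERBB3 and ERBB4, was tested through 1369783_a_at, which ran from 14.5 to 33.2 with medians of 25.7, 27, 24.3 and 24.3 on days 1 to 4. Neither the day test (limma adjusted p = 0.940) nor the clock hour estimate (+0.17 ± 0.17 over 10 h, limma adjusted p = 0.706) passed. Its most similar genes were Rbm10 (r = 0.65), Cbarp (0.61) and Tnrc6c (0.60).

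Among the receptors, Egfr had 3 probe sets. The probe set 1381145_at ran from 468 to 790 (median 620) in the 14 earlier rats and from 341 to 593 (median 487) in the 17 later rats. All 17 later rats lay below the median of the earlier ones, and 8 lay below every earlier rat. On day 1 it read 745, 617 and 790 from 7.0 to 10.0 h, then 560, 501, 530, 487 and 343 from 13.0 to 17.6 h, with no overlap. On day 2 it read 680, 624, 577 and 600 from 31.6 to 35.5 h, then 341, 391, 375 and 393 from 37.1 to 43.0 h, again with no overlap. The 40 h rat, left out here, read 604, inside the range of the earlier rats of that day.

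On days 3 and 4 the earlier and later rats overlapped for this Egfr probe set. On day 3 it read 631, 468 and 587 from 57.0 to 59.8 h and 407, 565, 581, 362 and 571 from 61.3 to 67.1 h. On day 4 it read 661, 490, 611 and 651 from 79.3 to 83.9 h and 593, 490 and 465 from 85.3 to 88.1 h. The clock hour estimate was -0.60 ± 0.13 (log2 over 10 h, limma adjusted p = 0.00764). The slopes within days were -0.84 ± 0.21, -0.81 ± 0.23, -0.19 ± 0.32 and -0.38 ± 0.26 on days 1 to 4, and the test of differing slopes did not pass. The call was lost without day 1 (-0.50, adjusted p = 0.169) and without day 2 (-0.50, adjusted p = 0.223), and it held in each of the 31 fits that leave out 1 rat. The 40 h rat read 604, above every other rat sampled later in the day, and the call was also made with it included.

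The other tested Egfr probe set, 1370830_at, showed no such fall in the reported fit. It ran from 373 to 1450 (median 677) in the earlier and from 308 to 1203 (median 709) in the later rats, and the clock hour estimate was -0.10 ± 0.28 over 10 h (limma adjusted p = 0.922). Its slopes were -0.98 ± 0.54, +0.05 ± 0.41, +0.03 ± 0.66 and +1.02 ± 0.67 on days 1 to 4, and the estimate was +0.25 without day 1. With the 4 tissue lists as covariates the estimate was -0.51 ± 0.27 (limma adjusted p = 0.412). That of 1381145_at in the same fit was -0.62 ± 0.14 (limma adjusted p = 0.0137). The pair had an r of 0.33 over the 31 rats. The slope of their log2 difference was -0.50 over 10 h, with a two-sided permutation p of 0.0834 when hours were permuted within days (100000 resamples, a test chosen after the values were seen), so the 2 probe sets were not shown to differ in slope and a fall of Egfr as a gene rests on 1 of them. The third, 1385413_at, was left out by the filter and ran from 8.59 to 22.9 over the 31 rats. It read 8.59 to 16.8 on day 1 and 13.2 to 18 on day 4, so its highest rat was on day 2 or 3. The genes most like 1370830_at were Rbm28 (r = 0.63), Eps8 (0.63), a substrate of the EGF receptor kinase, and Rarg (0.62).

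Erbb2 (1387813_at) had medians of 141, 136, 156 and 129 on days 1 to 4, and the 31 rats ran from 84.2 to 244. The day test gave a limma adjusted p of 0.914 and the clock hour estimate was +0.33 ± 0.17 over 10 h (limma adjusted p = 0.444). Erbb2 was correlated with the luminal epithelial list: r was 0.65 over the 31 rats (permutation p = 1.10e-04, adjusted p = 0.00367, Spearman's rho 0.69), 0.59 without the 2 rats farthest from the list's median, and 0.73, 0.79, 0.85 and 0.50 within days 1 to 4. The genes most like it were Trim29 (r = 0.89), Esrp1 (0.89), a splicing factor of epithelial cells, and Limk2 (0.87).

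Erbb3 (1369088_at) had medians of 119, 120, 122 and 124 on days 1 to 4 and a range of 84.4 to 171. The earlier rats had a median of 140 and the later ones of 117, and 16 of the 17 later rats lay below the earlier median, but the clock hour estimate of -0.24 ± 0.14 over 10 h did not pass (limma adjusted p = 0.498). Its r with the luminal list was 0.57 (permutation p = 7.80e-04, adjusted p = 0.0156, Spearman's rho 0.53), and without the 2 rats farthest from the list's median it was 0.44 with an adjusted p of 0.133, so the relation rested in part on those rats. The genes most like Erbb3 were Efna1 (r = 0.75), Ifnlr1 (0.70) and Card14 (0.69). Of the 100 relations computed between members and marker lists or Pgr, 5 passed at an adjusted p of 0.05, those of Btc and Areg with Pgr, Nrg4 with adipocytes, and Erbb2 and Erbb3 with luminal cells.

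**Figure D4:**
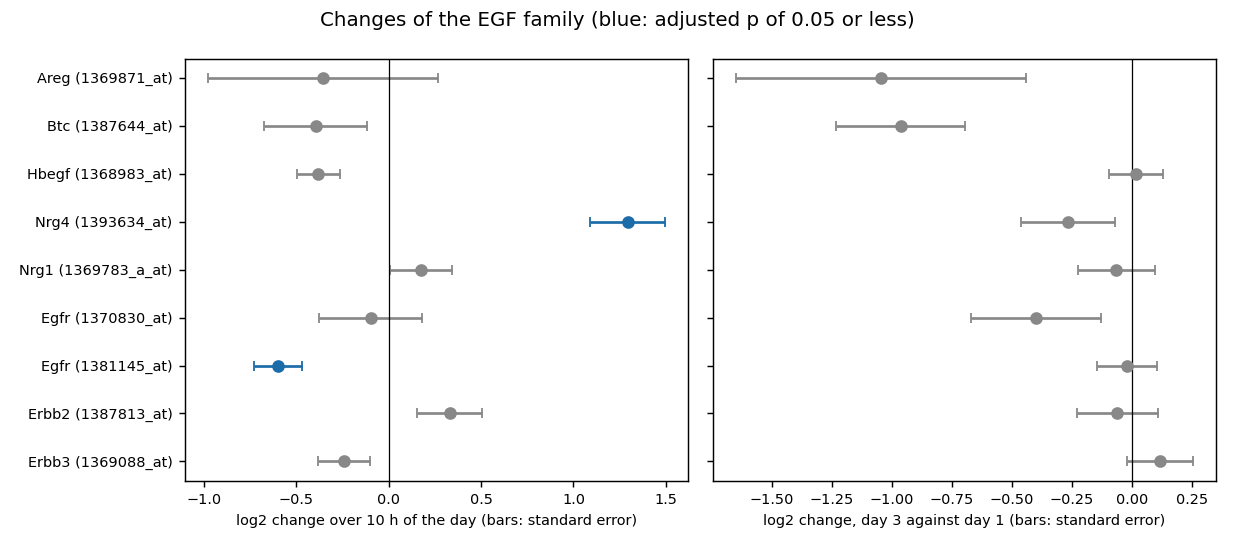
Estimated log2 change over 10 h of the day (left) and log2 difference of day 3 from day 1 (right) for the 9 tested probe sets, with bars of 1 standard error. Points in blue, Nrg4 and Egfr 1381145_at by clock hour, had an adjusted p of 0.05 or less, and the widest bars are those of Areg.

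Around the family, 59 genes of the pathway were tested from lists of other ligands (4), ligand release (7), adaptors and kinases (21), feedback inhibitors (15) and induced targets (12). By clock hour 4 of the 59 passed, beside 1.96% of all probe sets, 2 higher and 2 lower, and 3 of them belonged to the 7 genes of ligand release. The lists were chosen with earlier results of these data known, so these counts are a description and no independent support. Adam17, the protease that sheds Areg, Hbegf and other ligands, ran from 609 to 927 in the 14 earlier rats (median 707) and from 473 to 702 in the 17 later rats (median 587). All 17 later rats lay below the earlier median, and the estimate was -0.50 ± 0.08 over 10 h (limma adjusted p = 2.72e-04).

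Timp3, the tissue inhibitor that blocks Adam17, went the other way, from 1789 to 3061 (median 2477) in the earlier and from 2321 to 3803 (median 3090) in the later rats, with +0.58 ± 0.10 over 10 h (limma adjusted p = 5.96e-04). Rhbdf1, an inactive rhomboid that carries Adam17 to the cell surface, ran from 297 to 514 earlier and from 308 to 579 later, with +0.47 ± 0.12 (limma adjusted p = 0.0319). The calls of Adam17 and Timp3 were made in all 44 alternative fits. That of Rhbdf1 was made in 33, and it was lost with the 4 tissue lists as covariates (+0.41, adjusted p = 0.105), without day 1 (adjusted p = 0.142), day 2 (0.357) or day 4 (0.137), and without the rat of 16.0, 17.6, 41.6, 43.0, 57.0, 65.6 or 88.1 h, where the adjusted p ran from 0.0542 to 0.0846. The fourth was Lrig1, a membrane protein that restrains EGF receptors, at -0.40 over 10 h (limma adjusted p = 0.0429), and the call was made in 17 of 44 alternatives, 11 of them among the 31 that leave out 1 rat.

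**Figure D5:**
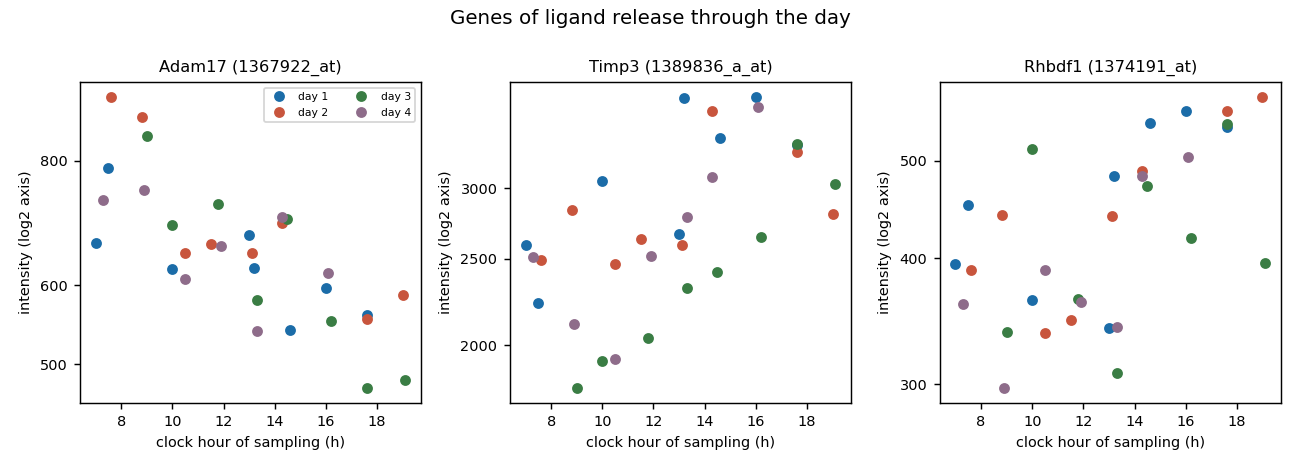
Intensity (log2 axis) of Adam17, Timp3 and Rhbdf1 against the clock hour of sampling, 1 point for each of 31 rats, coloured by day. Adam17 falls from a median of 707 in the earlier to 587 in the later rats, while Timp3 climbs from 2477 to 3090, and Rhbdf1 is higher late in the day with more overlap.

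Between day 3 and day 1, 2 of the 59 pathway genes passed, both lower on day 3, beside 1.12% of all probe sets, of which 152 of 237 were lower. Timp3 had medians of 3209 on day 1 and 2369 on day 3, with overlapping ranges (-0.45 ± 0.10, limma adjusted p = 0.0168). The call was lost without the rat of 57.0 h (-0.43, adjusted p = 0.0510) and without the clock hour term (-0.36, adjusted p = 0.230). Myc, a transcription factor that growth factors induce, read 917 to 1498 in the day 1 rats and 567.8 to 1011 in those of day 3 (-0.48 ± 0.12, limma adjusted p = 0.0476), and its call was made in 14 of 41 alternative fits, 8 of them among the 31 that leave out 1 rat. Method 1 called 14 of the 59, beside 9.06% of all probe sets, and 5 of the 14 were among the 7 genes of ligand release (Adam17, Adam9, Rhbdf1, Rhbdf2 and Timp3). The others were the adaptors and kinases Pik3r2, Src, Stat5a and Stat5b, the inhibitors Lrig1, Lrig3 and Ptpn1, and the targets Myc and Etv4. The median rho was 0.490 for the release genes and 0.248 for all probe sets tested, with the same limit on how the lists were chosen. No gene of the other ligands, Egf and Tgfa among them, was called by clock hour, between days 3 and 1 or by Method 1, with Egf at -0.27 ± 0.17 and Tgfa at -0.30 ± 0.17 over 10 h.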

How the data were processed

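Mammary gland RNA of 32 rats was hybridised to 1 Affymetrix Rat 230 2.0 array each. The deposited linear intensity values were made by the authors with GC-RMA, which corrects background by probe sequence and normalizes between arrays (named GCRMA by the submitters' processing notes, with no version). The labels and the study's methods describe tissue handling differently, and no batch was given. The 57 control probe sets were left out. limma 3.58.1 (R 4.3.3) fitted log2 intensity on cycle day and clock hour over 31 rats. Method 1 used an order 2 spline with 8 basis functions and the study's permutation vector. Permutation tests used 100000 resamples (Python 3.11.15, numpy 2.4.6). A gene with several probe sets was represented in lists and correlations by its probe set of highest mean log2 intensity. All member probe sets are named, with the pathway genes that passed a test and the 3 genes most like each member. The members and lists were chosen with earlier results of these data known. The fits were tested on simulated data. Alternatives covered the filter, arrays, normalization, array weights, variance model, covariates, days, spline and single rats. Precision is limited by the number of arrays.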

Additional observations from a re-analysis of the deposited data

Results flagged for a closer look

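In each day the highest and lowest rat of every tested probe set was compared with its nearest neighbour, as a share of the day's range, on the linear intensity scale. Of 36 such groups, 3 held a rat that stood apart, where chance alone gives about 1 in 20. Areg was highest on day 3 in the rat of 62.5 h, at 3063 against 892 in the next rat. Nrg4 was highest on day 4 in the rat of 88.1 h, at 83.6 against 51.7. Erbb2 was highest on day 4 in the rat of 86.3 h, at 244 against 142. On the log2 scale, which the fits used, the gaps were 0.468, 0.491 and 0.506 of the range, and 0 of the 3 rats stood apart.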

How the results depend on the processing

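No called result turned its direction under any alternative, and those not called that did turn then had estimates smaller than 1 standard error. Between days 3 and 1 the log2 difference of Hbegf was -0.058 with array weights, -0.041 without the clock hour term, -0.025 under the division at 41.6 h and -0.026 to 0.10 when each rat was left out. That of Egfr 1381145_at was 0.036 with 4 tissue lists, 0.029 under the division and -0.0901 to 0.043 when each rat was left out. That of Erbb2 was 0.049 with array weights and -0.12 to 0.032 when each rat was left out. By clock hour Areg was 0.53 without day 2 and -0.67 to 0.094 when each rat was left out, and Egfr 1370830_at was 0.25 without day 1 and -0.20 to 0.13. The number of members called between days 3 and 1 was 0 in the reported fit, 1 with array weights, 1 when the cycle was divided at 41.6 h and day 4 kept apart, and 0 to 1 when each rat was left out in turn. It was Btc in each case. For any difference among days the count was 0 to 1 when each rat was left out, with Btc called without the rat of 13.0 h (adjusted p = 0.0447). By clock hour it was 2, with 1 without day 1, 1 without day 2 and 2 to 3 when each rat was left out. For Method 1 it was 4, with 1 at spline order 4, 1 at a false discovery rate of 0.05 and 2 to 4 when each rat was left out. The cause of these changes was not tested. Without the 2 farthest rats 5 relations with marker lists or Pgr passed, of which 4 were shared with the 5 reported. That of Erbb3 with luminal cells was lost, and a relation not among those reported passed. No paired analysis was possible because each rat gave 1 array. With 1 array at each time point, changes of Areg within its spread between rats were not detectable.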
